A study of Mus musculus with 20 samples.

Results

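The genes described here are the murine major histocompatibility complex (MHC) genes Cd74, H2-Aa, H2-Ab1 and H2-Eb1 of class II and H2-D1 and H2-K1 of class I. They were selected on their measured log2 values over the 4 groups of these same arrays, so their levels and differences are given as a description. The fit over all genes includes them, and where its calls on them are counted nothing is read from the count. All probe sets whose only gene symbol was a member were taken, which gave 6 genes of 12393 and 20 probe sets of 22690. Left lung lobes were taken from embryos on the C57Bl6 background, and RNA of each animal was hybridised to 1 Affymetrix array. GRCol1-Cre mutants, which lack the glucocorticoid receptor (GR, encoded by Nr3c1) in mesenchymal cells, were compared with controls that carry the GR flox allele, at the embryonic stages E16.5 and, shortly before birth, E18.5. There were 5 animals in each of the 4 groups: E16.5 mutants, E16.5 controls, E18.5 mutants and E18.5 controls. The whole lobe was profiled, so epithelial, endothelial and blood cells, which are not mesenchymal, contributed RNA in mutants and controls alike.

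MHC class II molecules carry peptides from the endosomal and lysosomal compartment to the surface of antigen-presenting cells, where CD4+ T cells read them. H2-Aa and H2-Ab1 encode the alpha and beta chain of one class II molecule, H2-Eb1 encodes the beta chain of another, and Cd74 encodes the invariant chain, which holds the peptide groove until it is loaded. MHC class I heavy chains, here H2-D1 and H2-K1, pair with beta-2-microglobulin and show peptides from the cytosol to CD8+ T cells. Class I is made by most nucleated cells, whereas class II is largely kept to dendritic cells, B cells, macrophages and some epithelia, among them alveolar type II cells of the lung. Class II genes are switched on through the coactivator CIITA, which docks on factors bound to the X and Y boxes of their promoters, and class I promoters carry a kappa B-like element and an interferon-response element.

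Promoter letters are shown for 3 members, from RefSeq's annotation of the GRCm38.p6 build. H2-Aa (chr17:34282744-34287823), H2-Ab1 (chr17:34263227-34269418), H2-Eb1 (chr17:34305867-34316674), H2-D1 (chr17:35263094-35267497) and H2-K1 (chr17:33996012-34000619) lie together on chromosome 17. No window is printed for H2-Ab1 and Cd74. Each run is the 170 bases before the annotated start, 5′ to 3′ on the gene's own strand. The windows are chr17:34287824-34287993 on the minus strand for H2-Aa, chr17:34305697-34305866 on the plus strand for H2-Eb1 and chr17:35262924-35263093 on the plus strand for H2-D1. Capitals mark a match, on either strand, to the Y box core ATTGG, read as CCAAT where it lies on the other strand, the X1 box core AACNGATG, the X2 box palindrome TGACGTCA, the kappa B-like letters GATTCCC or the interferon-response letters GAANNGAAA.
H2-Aa: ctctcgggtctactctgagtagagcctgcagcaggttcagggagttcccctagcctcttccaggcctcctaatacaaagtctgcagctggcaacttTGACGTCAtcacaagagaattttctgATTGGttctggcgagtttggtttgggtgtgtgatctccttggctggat
H2-Eb1: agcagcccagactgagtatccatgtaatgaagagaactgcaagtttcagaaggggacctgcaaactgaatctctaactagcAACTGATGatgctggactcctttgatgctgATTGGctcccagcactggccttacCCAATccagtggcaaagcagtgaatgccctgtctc
H2-D1: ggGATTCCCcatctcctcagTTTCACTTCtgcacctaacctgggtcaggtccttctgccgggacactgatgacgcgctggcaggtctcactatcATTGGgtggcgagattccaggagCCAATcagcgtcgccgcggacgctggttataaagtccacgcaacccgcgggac

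The H2-Aa window held the X2 palindrome from base -74 and a Y box core from base -48, counted back from the start. The H2-Eb1 window held the X1 core from base -89 and Y box cores from bases -59 and -35. The H2-D1 window held the kappa B-like letters from base -168, the interferon-response letters from base -150 and Y box cores from bases -76 and -53. No match in these windows overlapped another. The H2-K1 windows, which lie inside the annotated span of the gene and are not printed, held the kappa B-like and interferon-response letters and a Y box core in the same order, and their longest run shared with the H2-D1 window was 40 bases, against at most 8 between any class II and any class I window. The H2-Aa and H2-Eb1 windows, both of class II, likewise shared no run longer than 8 bases. Over all 32851 promoter windows in the annotation, each of 250 bases before and 50 after the start, ATTGG was found in 37.4%, AACNGATG in 2.32%, TGACGTCA in 1.79%, GATTCCC in 3.36% and GAANNGAAA in 7.52%. The other order of the interferon-response letters, GAAANNGAA, was found in 8.56% of windows and in none of the members' windows. The glucocorticoid receptor core TGTTCT was found in 19.0% of all windows and in none of those of the 4 members. The full palindrome, which holds this core on both strands around a gap of 3 bases, was found in 3 of the 32851 windows and in none of the members'. TGACGTCA and GAANNGAAA were added to the search after the windows had been seen, and the matches are letters, not measured binding.

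Nr3c1 was lower in mutants than in controls at both stages. By limma its log2 difference was -1.72 at E16.5 (SE 0.17, adjusted p = 1.66e-05) and -1.62 at E18.5 (SE 0.17, adjusted p = 1.62e-06). The lung genes Sftpc (surfactant protein C) and Foxf1 (a lung mesenchyme transcription factor) were above a log2 value of 4 in all 20 arrays, whereas the single-gene probe set of Nkx2-1, a defining lung epithelial factor, was below it in all 20. On a scale where the mean E16.5 control is 0 and the mean E18.5 control is 1, E18.5 mutants lay between 0.45 and 0.77 and 4 of the E18.5 controls between 1.02 and 1.09. E18.5 control replicate 3 stood apart at 0.70, so results at E18.5 are also given without it. By Xist, 5 of 5 E16.5 mutants against 1 of 5 E16.5 controls, and 2 of 5 E18.5 mutants against 3 of 5 E18.5 controls, were female, so sex and genotype largely coincide at E16.5.

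At E18.5 the class II genes stood higher in mutants than in controls, in all 5 mutants and for all 4 genes, while both class I genes had slightly lower means with overlapping groups. The share of all genes whose groups separate fully was not counted in any comparison, so such separation is given as a description only. The log2 differences of class II lay between 1.06 and 2.14 and those of class I were both near -0.32. Values are log2 signal values, the unit of the deposited table. A log2 value below 4 is called dim.

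H2-Eb1, the E beta chain, had log2 values of 6.06, 6.85, 7.51, 7.25 and 7.75 in E18.5 mutants, against 4.64, 5.27, 4.84, 5.48 and 4.52 in E18.5 controls. The lowest mutant, replicate 1, was above the highest control. The log2 difference was 2.14 ± 0.28 (SE, n = 5 each), a 4.39-fold higher mean, the 9th highest of the 8068 genes tested. H2-Eb1 showed the widest mutant difference of the 6 genes.

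H2-Aa, the A alpha chain, had log2 values of 7.21, 8.12, 9.05, 8.24 and 8.91 in E18.5 mutants, against 6.95, 6.89, 6.16, 6.53 and 6.83 in E18.5 controls. The groups did not overlap, but mutant replicate 1 lay close to the highest controls and mutant replicates 3 and 5 far above them. The log2 difference was 1.64 ± 0.25 (SE), or 3.11-fold, the 27th highest. H2-Ab1, the A beta chain, had log2 values of 5.73, 6.19, 7.26, 6.72 and 7.26 in E18.5 mutants, against 5.37, 5.45, 4.39, 5.45 and 4.52 in E18.5 controls. The controls formed a higher set of 3 and a lower pair, replicates 3 and 5, and all lay below the lowest mutant. Its log2 difference was 1.60 ± 0.27 (SE), or 3.02-fold, the 34th highest.

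Cd74, the invariant chain, had log2 values of 9.12, 9.48, 10.07, 9.88 and 10.06 in E18.5 mutants, against 8.69, 8.75, 8.79, 8.58 and 8.48 in E18.5 controls. The controls were tight and all mutants were above them. The log2 difference was 1.06 ± 0.49 (SE), or 2.09-fold, the 153rd highest of the 8068 genes tested. The fit pools the spread over all arrays, and Cd74 varied widely at E16.5. With each stage fitted alone the SE was 0.17 and Cd74 was called.

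In each of the 4 class II genes the lowest E18.5 mutant was replicate 1, and replicates 3 and 5 were the 2 highest. Replicates 3 and 5 also had the highest positions between the stages among the mutants, 0.76 and 0.77, and replicate 4 the lowest, 0.45. The part of this position in the class II values was not tested. By the limma fit over all genes (Benjamini-Hochberg adjusted p under 0.05), 3 of the 4 class II genes were called higher, all but Cd74, and 0 of the 2 class I genes were called, beside 34.5% of all genes called in this comparison, 18.6% higher and 15.9% lower. Because the members were chosen with these values known, the count carries no weight of its own. Without E18.5 control replicate 3 the log2 differences were 2.11 (H2-Eb1), 1.51 (H2-Aa), 1.43 (H2-Ab1) and 1.10 (Cd74). Without E16.5 mutant replicate 1, in which Cd74 was dim, all 4 class II genes were called.

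**Figure D1:**
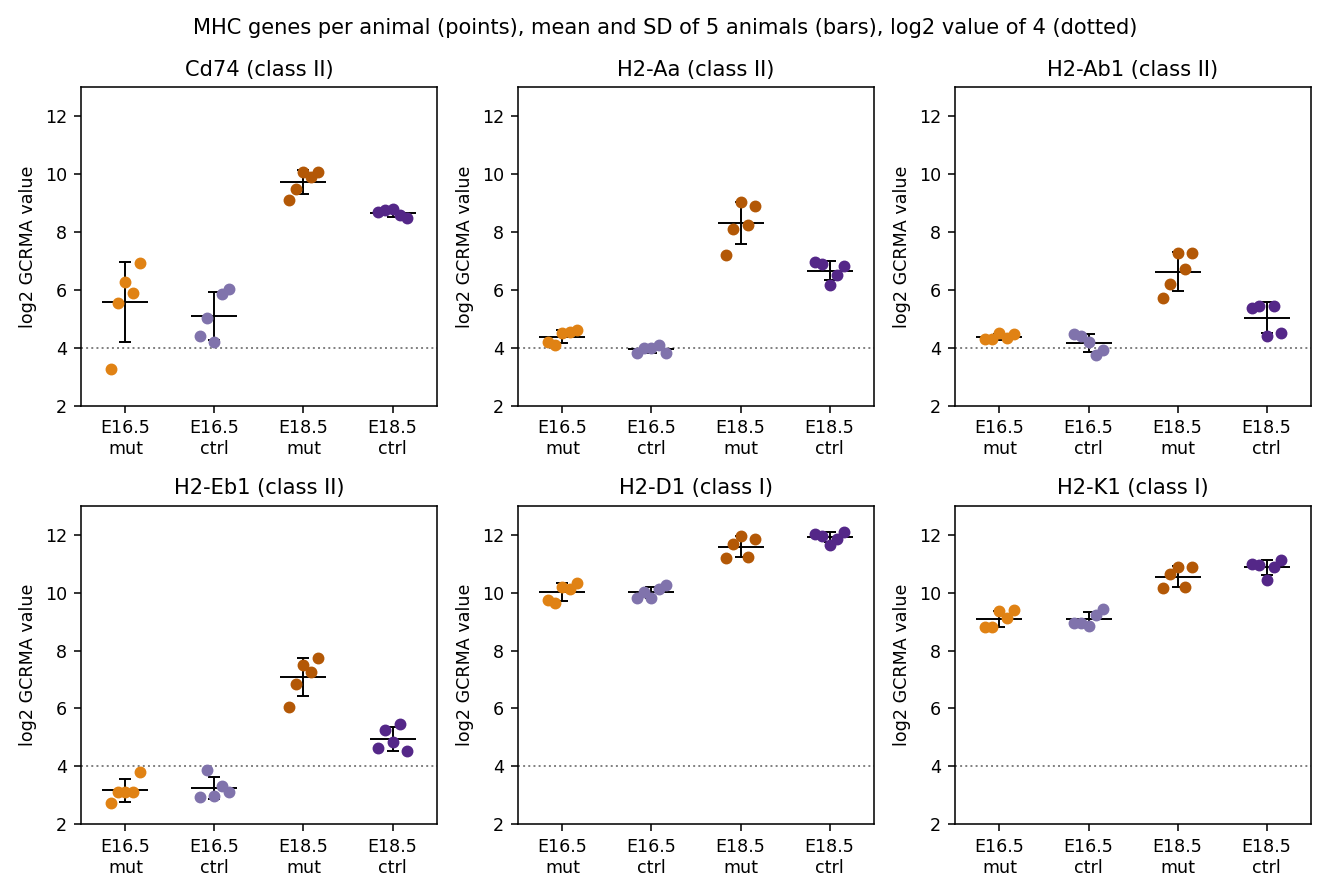
Log2 values of the 6 genes (vertical axis) in each animal (points), with the mean and SD of 5 animals (bars) and a dotted line at the log2 value of 4, by group along the horizontal axis. In the 4 class II panels every E18.5 mutant lies above every E18.5 control, whereas in the H2-D1 and H2-K1 panels the E18.5 groups overlap and both E18.5 groups lie above both E16.5 groups.

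H2-D1, a class I heavy chain, had log2 values of 11.21, 11.68, 11.97, 11.23 and 11.86 in E18.5 mutants, against 12.01, 11.95, 11.65, 11.87 and 12.10 in E18.5 controls. H2-K1, the other heavy chain, had 10.18, 10.63, 10.88, 10.21 and 10.90 in E18.5 mutants, against 11.00, 10.96, 10.45, 10.88 and 11.13 in E18.5 controls. Mutant replicates 1 and 4 were below all controls for both genes, the other 3 mutants lay within the range of the controls, and the lowest control was replicate 3 in both.

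The log2 difference was -0.32 ± 0.16 (SE) for H2-D1, 0.80-fold, and -0.33 ± 0.17 (SE) for H2-K1, also 0.80-fold. Without E18.5 control replicate 3 the differences were -0.39 for H2-D1 and -0.43 for H2-K1, and H2-K1 was then called lower. Without E18.5 mutant replicate 3 H2-D1 was called lower, at -0.42. Mutant replicate 4 was thus among the lowest for class I and yet above all controls for every class II gene.

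The remaining probe sets show how far these values rest on the choice of probe set. Of the 20, 11 were above a log2 value of 4 in at least 5 arrays and 8 were dim in all 20. Cd74 and H2-Eb1 have a single probe set each. The other H2-Aa probe set was above 4 in only 3 arrays, but it read 3.77 ± 0.73 (SD) in E18.5 mutants against 2.22 ± 0.28 in E18.5 controls, a difference of 1.55 close to that of the brighter one. Both other H2-Ab1 probe sets were dim in all 20 arrays. One of them read 2.42 ± 0.77 in E18.5 mutants against 1.93 ± 0.03 in E18.5 controls. Its groups overlapped, with mutants from 1.90 to 3.75 and controls from 1.90 to 1.97. The last one read 2.07 ± 0.07 in E18.5 mutants against 1.99 ± 0.02 in E18.5 controls. For class I, 4 of the 9 H2-D1 and 3 of the 4 H2-K1 probe sets passed the filter, and in these 7 the mutant difference at E18.5 ran from -0.34 to -0.13. Of these 7, 6 are of the x_at kind, which the manufacturer marks as able to bind similar transcripts, so signal from other class I genes cannot be told apart from that of H2-D1 and H2-K1. The H2-Aa and H2-Ab1 probe sets used are of the x_at and s_at kinds. The 1 bright probe set that names both H2-K1 and H2-D1 read 7.54 in E18.5 mutants and 7.81 in E18.5 controls.

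At E16.5 the groups overlapped for all 6 genes, and 0 of the 6 were called, beside 0.248% of all genes in this comparison (0.0496% higher and 0.198% lower). H2-Aa had log2 values of 4.19, 4.09, 4.50, 4.53 and 4.62 in E16.5 mutants, against 3.82, 4.0, 4.0, 4.11 and 3.81 in E16.5 controls. All but 1 of the mutants lay above all controls, close to the dim level, with a log2 difference of 0.44 ± 0.25 (SE). Cd74 had 3.27, 5.54, 6.26, 5.91 and 6.92 in E16.5 mutants, against 4.41, 5.04, 4.19, 5.85 and 6.02 in E16.5 controls, a difference of 0.48 ± 0.49 (SE). Cd74 therefore spread widely among animals of both genotypes, and mutant replicate 1 was the lowest of all 10. H2-Ab1 ran from 4.29 to 4.51 in E16.5 mutants and from 3.77 to 4.48 in E16.5 controls. H2-Eb1 was dim in all 10 E16.5 arrays, from 2.73 to 3.80 in mutants and from 2.93 to 3.86 in controls, so a fall or a small change there could not have been seen.

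The class I genes at E16.5 were well above the dim level. H2-D1 ran from 9.66 to 10.35 in E16.5 mutants and from 9.81 to 10.25 in E16.5 controls, and H2-K1 from 8.81 to 9.40 in mutants and from 8.86 to 9.42 in controls. Their log2 differences were both 0.01, with SEs of 0.16 and 0.17. With sex as a covariate the differences at E16.5 were 0.46 for H2-Aa and 0.32 for Cd74, with SEs of 0.31 and 0.61.

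Both classes stood higher at E18.5 than at E16.5, in mutants and in controls. In mutants the log2 difference between the stages was 4.14 ± 0.49 (SE) for Cd74, 3.92 ± 0.25 for H2-Aa, 3.91 ± 0.28 for H2-Eb1 and 2.25 ± 0.27 for H2-Ab1. In controls it was 3.56 for Cd74, 2.72 for H2-Aa, 1.70 for H2-Eb1 and 0.89 for H2-Ab1, with the same SEs because the fit shares its spread. For H2-Eb1, dim at E16.5, the difference between stages is limited by the floor of the values. For the class I genes it was smaller in mutants than in controls, at 1.57 ± 0.16 against 1.90 for H2-D1 and 1.46 ± 0.17 against 1.80 for H2-K1.

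All 5 E18.5 animals lay above all 5 E16.5 animals of the same genotype for each gene, except for H2-Ab1 in controls, where 4 of 5 did and replicate 3 did not. Here too the share of all genes that separate fully was not counted, so nothing is read from the separation. All 6 genes were called higher in mutants, where 56.2% of all genes were called (28.7% higher and 27.6% lower), and all 6 in controls, where 70.9% were called (35.3% higher and 35.5% lower). These comparisons use the same E18.5 animals as the comparison of genotypes at E18.5. On the scale between the stages all 5 E18.5 mutants lay below 4 of the E18.5 controls, and mutant replicates 3 and 5 lay above E18.5 control replicate 3. For each class II gene all 5 E18.5 mutants lay above all 5 E18.5 controls. The part of the position between the stages in this difference was not tested.

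**Figure D2:**
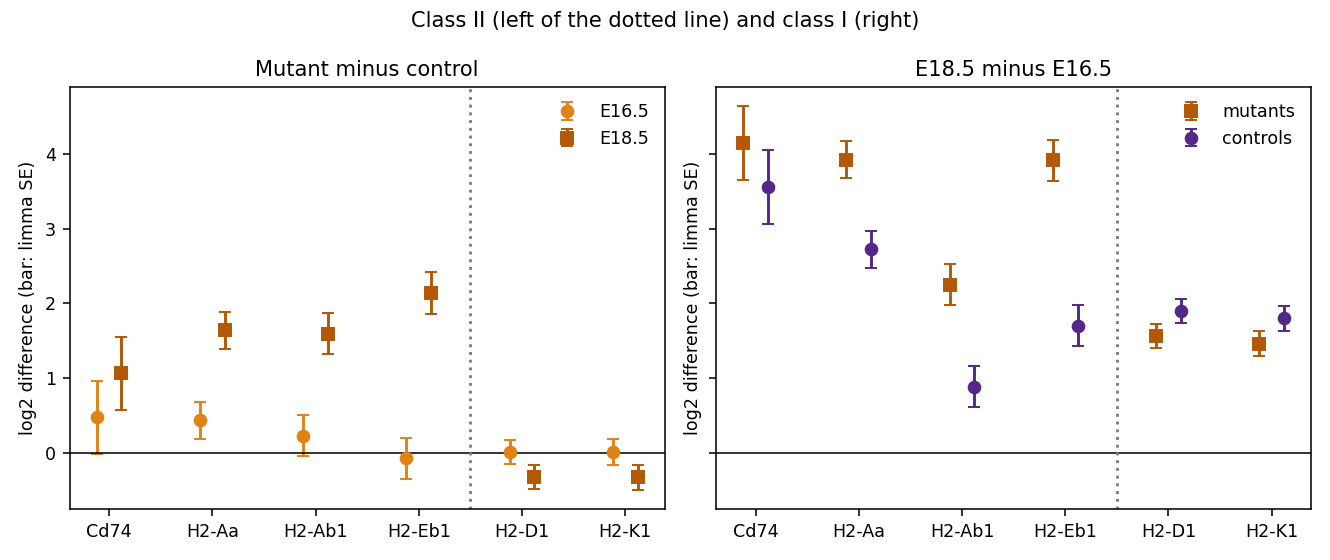
Log2 differences with limma SE for each gene, mutant minus control at the 2 stages (left panel) and E18.5 minus E16.5 in the 2 genotypes (right panel). Class II genes stand left of the dotted line and class I genes right of it; class II differences at E18.5 lie between 1.06 and 2.14 and those of class I at -0.32 and -0.33.

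The mutant difference at E18.5 minus that at E16.5 was 2.21 ± 0.39 (SE) for H2-Eb1, 1.37 ± 0.38 for H2-Ab1, 1.20 ± 0.35 for H2-Aa and 0.59 ± 0.69 for Cd74. It was -0.33 ± 0.22 for H2-D1 and -0.34 ± 0.24 for H2-K1. Of class II 3 of 4 and of class I 0 of 2 were called, beside 8.4% of all genes (3.62% higher and 4.78% lower). The value for H2-Eb1 rests on E16.5 values that were all dim. Between 1 and 3 class II genes were called in the 20 fits that left out 1 array, and H2-Aa and H2-Ab1 were the ones lost. H2-Aa lost its call in most of these fits. It kept the call only without E16.5 control replicate 5, E18.5 control replicate 3 or E18.5 mutant replicate 1. H2-Ab1 lost its call in fewer of them. Without E16.5 mutant replicate 1 the value for Cd74 was 0.01.

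The contrast between the classes can be read within each animal. The mean log2 value of the 4 class II genes minus that of the 2 class I genes was taken per animal and set to 0 for the mean E16.5 control. It was 1.77, 1.94, 2.48, 2.74 and 2.56 in E18.5 mutants, against 0.34, 0.57, 0.43, 0.57 and -0.09 in E18.5 controls. It was -0.23, 0.46, 0.25, 0.28 and 0.52 in E16.5 mutants, against -0.05, 0.27, -0.06, 0.01 and -0.18 in E16.5 controls. The E18.5 mutants lay above all 15 other animals, and the E18.5 controls overlapped both E16.5 groups. The mean was 2.30 ± 0.42 (SD, n = 5) in E18.5 mutants against 0.37 ± 0.27 in E18.5 controls. The genes were selected on these values, and how often such contrasts of other genes separate fully was not counted. The separation is therefore given as a description only.

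**Figure D3:**
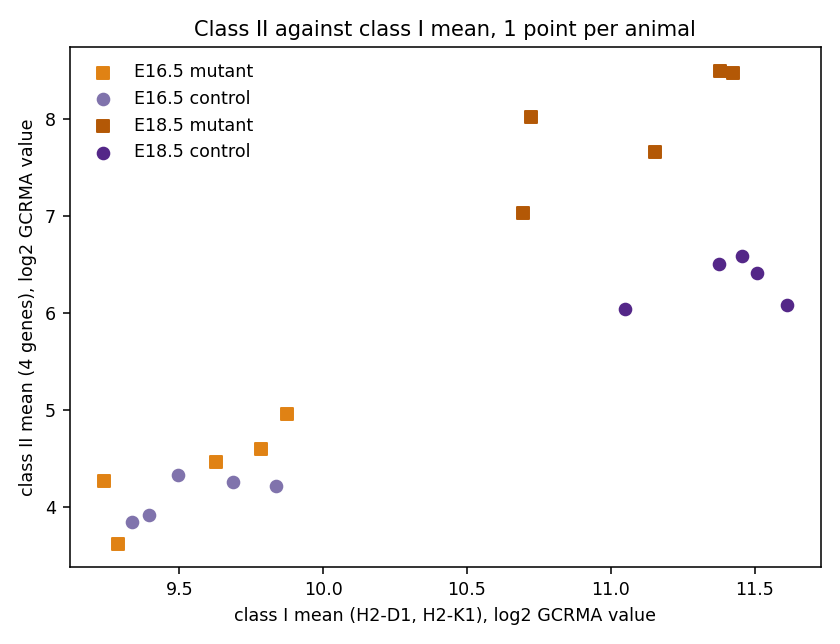
Mean log2 value of the 4 class II genes (vertical axis) against the mean of H2-D1 and H2-K1 (horizontal axis), 1 point per animal, squares for mutants and circles for controls. All E18.5 mutants lie above all E18.5 controls on the class II axis, the 2 groups overlap on the class I axis, and both E16.5 groups lie together at the lower left.

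Of 20 listed genes for class II loading, lysosomal processing and transcription, 17 had a single-gene probe set and 12 were tested. By limma at E18.5 1 was called higher and 2 lower, beside 18.6% higher and 15.9% lower of all genes, and the median log2 difference was 0.08, beside 0.03 over all genes tested. Nfyb, a subunit of the factor that binds the Y box, rose by 0.40 (SE 0.07, adjusted p = 0.000622). The interferon-inducible lysosomal thiol reductase Ifi30 (-0.31, SE 0.10, adjusted p = 0.0252) and the protease Ctsl (-0.27, SE 0.07, adjusted p = 0.00596) fell. Rfx5, a subunit of the X box factor, stood at 0.37 (SE 0.15, adjusted p = 0.0682), and Rfxank, Rfxap, Nfya, Nfyc and Creb1 stood between 0.07 and 0.24 without passing. The protease Ctss, which trims the invariant chain, stood at -0.29 (adjusted p = 0.188). The number called higher ran from 1 to 3 and lower from 1 to 3 when 1 array was left out, and was 2 and 3 without E18.5 control replicate 3.

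The class II coactivator Ciita was dim in all 20 arrays, with means of 2.03 in E18.5 mutants and 2.04 in E18.5 controls, so its part was not tested. H2-DMa, the alpha chain of the peptide exchange factor, was above 4 in 3 arrays and was not tested, with a mean of 4.05 in E18.5 mutants against 3.05 in E18.5 controls. H2-DMb2, H2-Oa and the costimulator Cd86 were dim in all 20 arrays.

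Of 14 tested genes that serve class I, 0 were called higher at E18.5 and 1 lower, beside the same shares of all genes, with a median of -0.06. The call was Tapbp (tapasin, which bridges class I and the peptide transporter), at -0.41 (SE 0.12, adjusted p = 0.0130). B2m, the class I light chain, stood at -0.06 (SE 0.10), the transporter Tap1 at 0.03 (SE 0.27), the immunoproteasome subunits Psmb8 at -0.13 (SE 0.27) and Psmb9 at 0.00 (SE 0.30), and the aminopeptidase Erap1 at -0.08 (SE 0.15), none passing. Of 6 tested other class I and class I-like genes, Procr (the protein C receptor, 0.35) and Cd1d1 (which presents lipids, 0.31) rose and Fcgrt (the neonatal Fc receptor, -0.35) fell. Leaving out 1 array gave 1 or 2 called lower in the first list, and 1 or 2 higher and 0 or 1 lower in the second. Fcgrt was called in 17 and Procr in 15 of the 20 such fits, and Fcgrt lost its call without E18.5 control replicate 3.

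Between the stages in controls, 9 of the 14 class I pathway genes rose and 4 fell, beside 35.3% higher and 35.5% lower of all genes. Those that rose include Psmb8 (3.01, SE 0.27, adjusted p = 1.62e-08), Psmb9 (2.42), Tap1 (1.96) and Tapbp (1.89), and B2m rose by 0.89. Those that fell are the endoplasmic reticulum chaperones Calr (-0.25), Canx (-0.26), Pdia3 (-0.31) and Hspa5 (-0.21). Of the 12 class II pathway genes 5 rose and 6 fell in the same comparison, where the calls over all genes were as evenly divided. The lysosomal genes Ctss (1.77), Ifi30 (0.96), Ctsl (0.72), Sppl2a (0.51) and Lgmn (0.47) rose, and the promoter-binding subunits Nfyb (-0.87), Nfya (-0.63), Creb1 (-0.44), Rfx5 (-0.40), Rfxap (-0.38) and Nfyc (-0.27) fell.

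Interferon gamma raises both MHC classes, so a general list of interferon genes was read beside them, which holds targets of both interferon types as well as receptor chains and kinases. At E18.5, 2 of its 23 tested genes were called higher in mutants and 6 lower, in all a share close to the 34.5% of all genes, and the median was -0.31. The GTPase Iigp1 (0.67, SE 0.10, adjusted p = 0.000112) and Ifit2 (0.43) rose, Ifit2 with a call in 15 of the 20 fits that left out 1 array. The antiviral membrane proteins Ifitm1 (-1.54, SE 0.20, adjusted p = 1.63e-05) and Ifitm3 (-0.47), the interferon gamma receptor chains Ifngr2 (-0.88, SE 0.17, adjusted p = 0.000617) and Ifngr1 (-0.39), the type I receptor chain Ifnar2 (-0.41) and the kinase Jak2 (-0.19) fell. Irf1 (-0.31) and the GTPases Gbp2 (-0.24), Igtp (-0.20) and Irgm1 (-0.15) did not pass, and Cxcl9, Cxcl10 and Socs1 were dim in all 20 arrays. Without E18.5 control replicate 3 the counts were 1 higher and 8 lower, and over all fits that left out 1 array they ran from 1 to 2 higher and from 4 to 8 lower. Between the stages in controls 20 of the 23 rose and 0 fell, with Oasl2 (5.43), Usp18 (5.18) and Rsad2 (4.55) the highest.

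**Figure D4:**
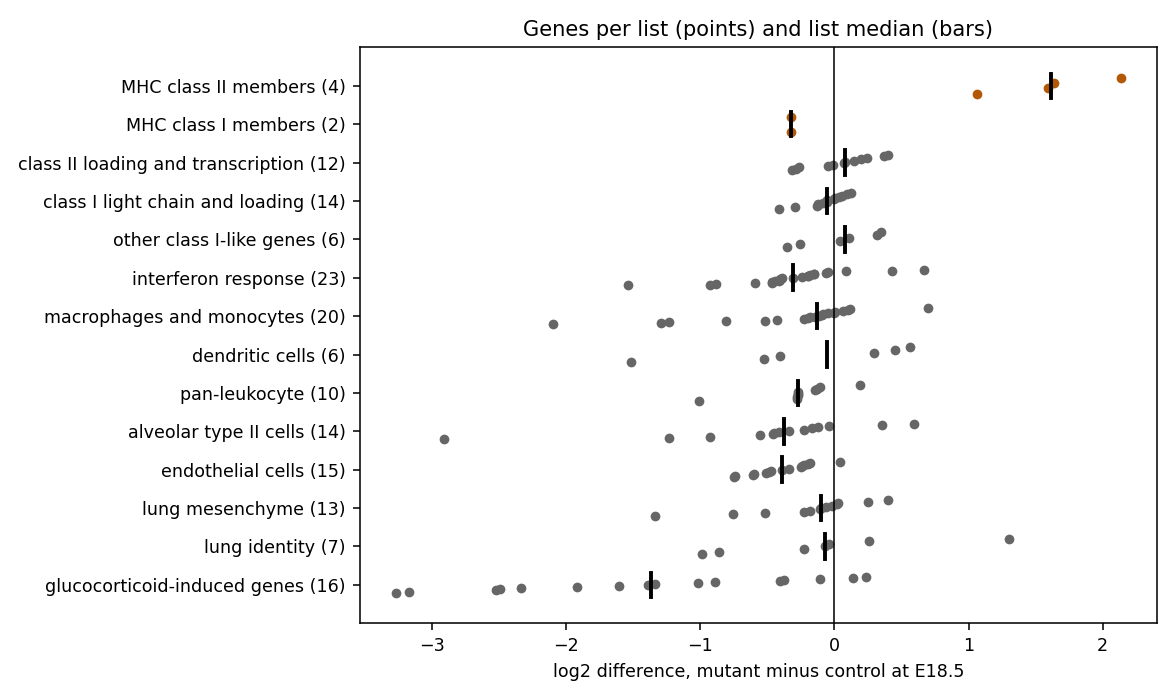
Log2 difference at E18.5, mutant minus control (horizontal axis), for each tested gene (points) and its list's median (bars), by list with at least 5 tested genes, after the 6 MHC genes, down the page with the number of genes in brackets. The 4 class II genes, selected on these values, lie between 1.06 and 2.14, and the medians of all other lists between -1.37 and 0.08. Single genes can lie far from their list's median: Sox9 of the lung identity list, at 1.30, is within the class II range.

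In whole-lobe RNA, more cells that express class II and more class II RNA per cell cannot be told apart, so markers of the cells that carry class II are given as measured. The counts at E18.5 in these lists stand beside 18.6% of all genes called higher and 15.9% lower. Of 20 tested macrophage and monocyte genes 1 was called higher at E18.5 and 5 lower, with a median of -0.13. Aif1 rose by 0.70 (SE 0.21, adjusted p = 0.0169). The engulfment receptor Mertk (-2.10, SE 0.29, adjusted p = 2.97e-05), Lgals3 (-1.29), the lysozyme Lyz2 (-1.24), F13a1 (-0.81) and Pf4 (-0.43) fell. The defining markers Csf1r (-0.12, SE 0.09), Adgre1 (0.06, SE 0.14), Mrc1 (-0.08), Cd68 (-0.05), C1qa (-0.01), C1qb (0.10) and C1qc (-0.09) did not pass. The mean log2 value over the list ran from 7.48 to 8.31 in E18.5 mutants and from 8.05 to 8.29 in E18.5 controls. Without E18.5 control replicate 3 the counts were 1 higher and 7 lower, and Aif1 lost its call without E18.5 control replicate 2.

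Of 18 dendritic cell genes with a probe set 12 were dim in all 20 arrays, among them the defining Itgax, Flt3, Xcr1 and Cd209a. Of the 6 tested, Fscn1 (0.45) rose and Irf8 (-1.51, SE 0.17, adjusted p = 3.44e-06) and Zbtb46 (-0.53) fell, and the list mean ran from 7.36 to 7.64 in E18.5 mutants and from 7.56 to 7.84 in E18.5 controls. Without E18.5 control replicate 3 the counts were 2 higher and 3 lower. Fscn1 was bright, with group means from 12.38 to 13.29, while the defining markers were dim, so its cell source cannot be told here. Bst2, another of the 6, is also in the interferon list. Of 13 B cell genes 11 were dim in all 20 arrays, including Cd79a, Ms4a1 and Pax5, and the 2 tested, Cd79b (-0.07) and Ebf1 (-0.16), did not pass, though 1 of the 2 was called lower without E18.5 control replicate 3. All 16 markers of T cells, thymus and innate lymphoid cells were dim in all 20 arrays, among them Cd3e, Cd4, Cd8a and the thymic epithelial factor Foxn1.

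Of 10 tested pan-leukocyte genes 0 were called higher and 1 lower, Itgb2 (the common beta chain of leukocyte integrins, -1.01, SE 0.20, adjusted p = 0.000980), with a median of -0.27. Ptprc (CD45) stood at -0.13 (SE 0.29). The list mean ran from 7.56 to 8.28 in E18.5 mutants and from 7.85 to 8.34 in E18.5 controls. The number called lower ran from 1 to 3 when 1 array was left out, 3 without E18.5 mutant replicate 3, and was 2 without E18.5 control replicate 3.

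Alveolar type II cells are an epithelial class II source in lung. Of their 14 genes, all tested, Etv5 (0.59) rose and Chil1 (-2.91, SE 0.65, adjusted p = 0.00215) and Lyz1 (-0.93) fell, and the median was -0.37. Sftpc stood at -0.04 (SE 0.07), Sftpb at -0.46 (SE 0.31) and Abca3 at -0.45 (SE 0.25), none passing. The list mean ran from 11.44 to 12.41 in E18.5 mutants and from 12.09 to 12.59 in E18.5 controls. Leaving out 1 array gave 2 or 3 called lower.

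Endothelial cells express class I strongly. Of their 15 genes 0 were called higher and 10 lower, with a median of -0.39, among them Robo4 (-0.75), Emcn (-0.74), Ramp2 (-0.61) and Pecam1 (-0.60). Without E18.5 control replicate 3, 12 were called lower. The list mean ran from 9.44 to 9.63 in E18.5 mutants and from 9.77 to 10.08 in E18.5 controls, without overlap, beside the overlapping class I values. Its part in the class I values was not tested.

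Of 13 lung mesenchyme genes 1 rose, Meox2 (0.40), and 3 fell, Eln (elastin, -1.34), Tcf21 (-0.75) and Pdgfra (-0.52). Of 7 tested lung identity genes Sox9 (1.30) and Foxa2 (0.26) rose and Ager (-0.86) fell, and without E18.5 control replicate 3 the counts were 2 higher and 2 lower. Of 16 glucocorticoid-induced genes 13 fell, with a median of -1.37, among them Zbtb16 (-3.27), Pdk4 (-3.17), Sult1a1 (-2.52) and Per1 (-2.50). At E16.5 the only calls in any of the lists were Per1 (-1.53, adjusted p = 0.0118) and Hif3a (-1.35, adjusted p = 0.00931) of these 16.

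Between the stages in controls, where 35.3% of all genes were called higher and 35.5% lower, most genes of several cell type lists rose. Of pan-leukocyte genes 10 of 10, of macrophage genes 19 of 20, of endothelial genes 15 of 15, of alveolar type II genes 13 of 14 and of B cell genes 2 of 2 rose, and 0 fell. Of dendritic cell genes 4 of 6 rose and 2 fell, and of lung mesenchyme genes 5 of 13 rose and 1 fell. Csf1r rose by 0.98, Ptprc by 2.47, Pecam1 by 1.12 and Sftpb by 3.20. Their part in the rise of the MHC genes between the stages was not tested.

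Animals of one group also differed in a shared way. After each gene's group mean was taken off, H2-D1 and H2-K1 followed each other over the 20 arrays (Pearson r = 0.96, Spearman rho = 0.96). The chains H2-Aa and H2-Ab1 did so with r = 0.74 (rho 0.63), H2-Aa and H2-Eb1 with r = 0.65 (rho 0.46) and H2-Ab1 and H2-Eb1 with r = 0.70 (rho 0.60). Cd74 followed H2-Ab1 with only r = 0.13 (rho 0.20) and H2-Eb1 with r = 0.52 (rho 0.61). The class II mean and the class I mean gave r = 0.71 (rho 0.67). These are descriptions of 20 arrays that share RNA quality, dissection and stage position, and no p is given.

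The class I mean followed the mean of its own pathway list most closely (r = 0.95, rho 0.95, and 0.96 without the 2 arrays farthest from that list's median). It followed the type II list with r = 0.88 (rho 0.87, 0.89 without 2 arrays), the pan-leukocyte list with r = 0.86 (rho 0.90, 0.84 without 2) and the macrophage list with r = 0.84 (rho 0.89, 0.83 without 2). The class II mean followed the same 4 lists with r of 0.60, 0.63, 0.54 and 0.61 (rho 0.59, 0.63, 0.55 and 0.59), and its own pathway list with r = 0.09 (rho 0.20, 0.01 without 2). The glucocorticoid-induced list followed the class I mean about as closely as the macrophage list did, with r = 0.84 (rho 0.86, 0.84 without 2). The interferon list did so with r = 0.82 (rho 0.82, 0.77 without 2). With the class II mean these lists gave r of 0.46 and 0.56 (rho 0.60 and 0.55). Over all genes tested, r ran, between its 5th and 95th percentiles, from -0.64 to 0.63 with the class II mean and from -0.71 to 0.71 with the class I mean.

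Of all tested genes outside the 6, those most like the class II mean within groups were Lrrc26 (r = 0.89, rho 0.78), Esco1 (0.86), Ctla2b (0.86), Xbp1 (0.85) and Zfp672 (0.85), over 20 arrays. Their log2 differences at E18.5, mutant minus control, were all below 0, from -0.78 (Lrrc26) to -0.15 (Zfp672). Those most like the class I mean were Ctss (r = 0.91, rho 0.91), Larp1b (0.91), Chchd10 (0.90), the leukocyte surface antigen Cd52 (0.90) and Mgst1 (0.89). Their differences at E18.5 ran from -0.79 (Larp1b) to 0.19 (Cd52).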

How the data were processed

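RNA of 20 left lung lobes (4 groups of 5, by title) was measured on Affymetrix arrays. The authors computed the deposited log2 values by GCRMA, per the submitters' processing notes, in a version that the sources used here do not give. GCRMA subtracts background, scales arrays together and gives 1 value per probe set, so low values sit at a floor and differences of dim genes are understated. Array medians ran from 5.696 to 5.869. The number of arrays limits the precision.

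Of 22690 probe sets 20380 name 1 gene. Each gene took its brightest single-gene probe set, and genes above a log2 value of 4 in at least 5 arrays (8068) were fitted with limma 3.58.1 (lmFit, eBayes) in R 4.3.3 on group means over all 20 arrays, with Benjamini-Hochberg adjustment over all genes and calls at 0.05. H2-Eb1 passed this filter through the E18.5 arrays alone. Figures and promoter searches used Python 3.11.15. The fit was tested on simulated data.

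The members, gene lists and named genes were chosen with earlier results of these data known. Named by rule were the 6 members, up to 4 called genes per list and comparison, the genes called in the difference between mutant effects, the 5 genes most like each class mean and Nr3c1; the text names fewer for control development and at E16.5. Other list genes named beside them, such as defining markers, were chosen as pathway or cell type members after their values were seen. The labels do not say whether animals of a group shared a litter. Whether replicate numbers pair animals is not known, and the main fit did not treat them as pairs.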

Additional observations from a re-analysis of the deposited data

Results flagged for a closer look

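For 18 genes of the lists the mutant difference at E18.5 was not the same as at E16.5, by limma's test of the difference itself (adjusted p under 0.05 over 8068 genes, 8.4% called). The value for each is the log2 mutant difference at E18.5 minus that at E16.5. Among genes of the class II and interferon lists it was 0.41 for Nfyb, -1.89 for Ifitm1 and -1.04 for Ifngr2. Among leukocyte genes it was -1.38 for Mertk, -0.80 for Irf8 and -1.0 for Itgb2. Mertk and Irf8 were each called in only 5 of the 20 fits that left out 1 array, and Itgb2 in 7. In the endothelial list it was -0.49 for Pecam1, -0.57 for Emcn and -0.57 for Ramp2. In the mesenchyme and lung identity lists it was -0.93 for Eln and 1.28 for Sox9. Of the glucocorticoid-induced genes it was -1.94 for Fkbp5, -1.06 for Tsc22d3, -2.49 for Zbtb16, -0.85 for Dusp1, -1.47 for Klf9, -2.64 for Pdk4 and -1.57 for Cdkn1a. No animal stood apart from the other 4 of its group in the members' values, the class means or the class difference, over 36 groups of 5 values, where chance alone would flag about 1 in 20.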

How the results depend on the processing

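Of the differences of the 6 members, 808 of 812 under the alternatives moved by less than the spread between animals. The exceptions were stage differences under the mean over all single-gene probe sets, which brings in dim ones: H2-Aa 2.80 in mutants and 1.43 in controls, and H2-D1 0.67 in mutants and 0.84 in controls. The filters, separate stage fits, replicate block and leaving out an array outside a comparison cannot change a member's difference. Leaving out 1 of 5 animals can move a group mean only little. The count of 808 is therefore no measure of how firm the differences are. The class II minus class I difference moved by less than the spread between animals in all of its alternatives (quantile normalization, median centring, all probe sets). Of the counts of genes called, the E16.5 count of 20 was 9 with each stage fitted alone and 8 with sex as a covariate, and ran from 13 to 22 without 1 array. The count for the difference between the mutant effects, 678 with all arrays, was 403 with sex as a covariate and ran from 393 to 1445 without 1 array, the highest without E18.5 control replicate 3; the cause was not tested. At E18.5 the count ran from 2197 to 3355 without 1 array. Same-numbered animals correlated between -0.43 and 0.60. Differently numbered animals were not compared, so whether the numbers pair the animals cannot be told. In a fit with the replicate block, 2943 genes were called at E18.5 and 17 at E16.5. Of the members' calls only that of H2-Ab1 in the difference between the mutant effects was lost. H2-Aa and H2-Ab1 lost the same call with sex as a covariate and with no filter on dim genes, at values of 1.17 to 1.37. H2-Ab1 has no value under the stricter filter, above log2 6, or under the mean over all single-gene probe sets. Its dependence on the choice of probe set was therefore not covered by that fit. Values near the floor limit what can be seen of H2-Eb1, H2-Aa and H2-Ab1 at E16.5, and 5 animals per group limit the precision of all differences.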
